A study of Bos taurus with 4 samples.

Results

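The genes described here encode histone-modifying and chromatin-remodelling enzymes together with their partner subunits. They were taken by name alone. Every embryo probe whose platform symbol began with KDM, SETD, PRMT, SMARC or ARID, or with HDAC, KAT, SIRT, BRD or CHD followed by a digit, was a member. This gave 130 of 43794 embryo probes, which stood for 84 of 15229 gene symbols in 10 families. RNA came from bovine blastocysts made in vitro from oocytes of slaughterhouse ovaries. They were sired either by bulls aged 16 months or by bulls aged 10 months, and both groups shared the same oocyte source and culture. Each of 4 two-colour arrays carried 1 sample of either age, with the 10-month sample in Cy5 on replicates 1 and 2 and in Cy3 on replicates 3 and 4. The design text names 4 bulls, each collected at both ages, but the labels neither tie an array to a bull nor say how many embryos a sample held. In the main fit, p-values measure the spread between arrays of the same dye orientation, with 2 residual degrees of freedom. This spread is moderated by a prior estimated over all tested probes, worth 5.72 degrees of freedom. Whether it also holds the spread between bulls is not known. The labelled stage was set beside its markers. Of these, 6 of 6 trophectoderm genes and 3 of 3 inner cell mass genes were above background, as were 82.9% of all embryo probes. Median brightness percentiles of the 2 lists among all embryo probes were 96.0 and 86.2, with CDX2 at 59.8 and SOX2 at 67.8. Most genes on the lists for other cells, given below, passed the same filter, so passing it does not establish the stage.

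DNA in a nucleus is wrapped around histones, and chromatin enzymes decide how tightly. Writers add methyl or acetyl groups to histone tails (the SETD and PRMT methyltransferases and the KAT acetyltransferases), erasers take them off (the KDM demethylases and the HDAC and SIRT deacetylases), and readers such as the BRD proteins bind the marks. Remodellers of the SWI/SNF, ISWI and CHD types move or evict nucleosomes with ATP. In cleavage embryos these enzymes act during the switch from maternal to embryonic transcription, when the marks carried by sperm and oocyte are largely rewritten. A symbol prefix is not a biochemical class: SMARC also names subunits without catalytic activity, and several ARID proteins are DNA-binding factors.

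Most member probes passed the background filter, as did most embryo probes. Of the 130 member probes, 119 were above background in either dye on at least 2 arrays and were tested, 10 were not above background, and 1 (SETD5) was left out because the scan software had set its spot aside. The tested share was 91.5% of member probes, against 85.9% of all probes with a gene symbol and 82.9% of all embryo probes. At both ages and on all 4 arrays, 75 of the tested probes were above background, and these covered 62 genes. No tested probe stood for 7 genes. These were KDM1B and SETD1B, whose products act on the same histone H3 methyl mark from opposite sides, SETD5, the arginine methyltransferase PRMT8, the ISWI ATPase SMARCA1, the class I deacetylase HDAC3 and CHD5. Apart from SETD5, their probes carried signal at or near background, which gives neither a level nor an absence of the transcript.

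Brightness ranged widely within families. A rank below is the percentile of a probe's mean log2 intensity, over both dyes and 4 arrays, among all embryo probes. It holds the probe's own affinity as well as its transcript, so it orders no genes by abundance. The median rank was 66.0 over all members, against 57.7 over named probes, and 47 member probes (36.4%) ranked above 75. Over probes, the KDM family had the highest median rank, 75.4, and KAT the lowest, 41.7, and they held those places on each of the 4 arrays. The order depends on counting probes. By the brightest tested probe of each gene, SMARC was highest at 86.3, KDM was at 79.8, HDAC at 68.3 and KAT at 68.2. KAT had 4 probes of 2 genes. The rule left out MYST1 and MYST2, now KAT8 and KAT7, whose brightest probes ranked 89.7 and 95.5. Between KDM and KAT in the order over probes stood PRMT (70.3), SMARC (69.5), BRD (69.0), HDAC (67.6), SIRT (65.7), SETD (60.7), CHD (54.9) and ARID (49.4). Probes of a single gene also differed, with a median of 2.19 log2 units between the brightest and the dimmest over 27 genes with several tested probes. KAT5 (TIP60), the catalytic subunit of an acetyltransferase complex, showed the widest such range, with 3 probes at ranks 35.1, 42.7 and 95.9. The brightest member was BRD8, a subunit of the same TIP60 complex, at rank 98.7.

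**Figure D1:**
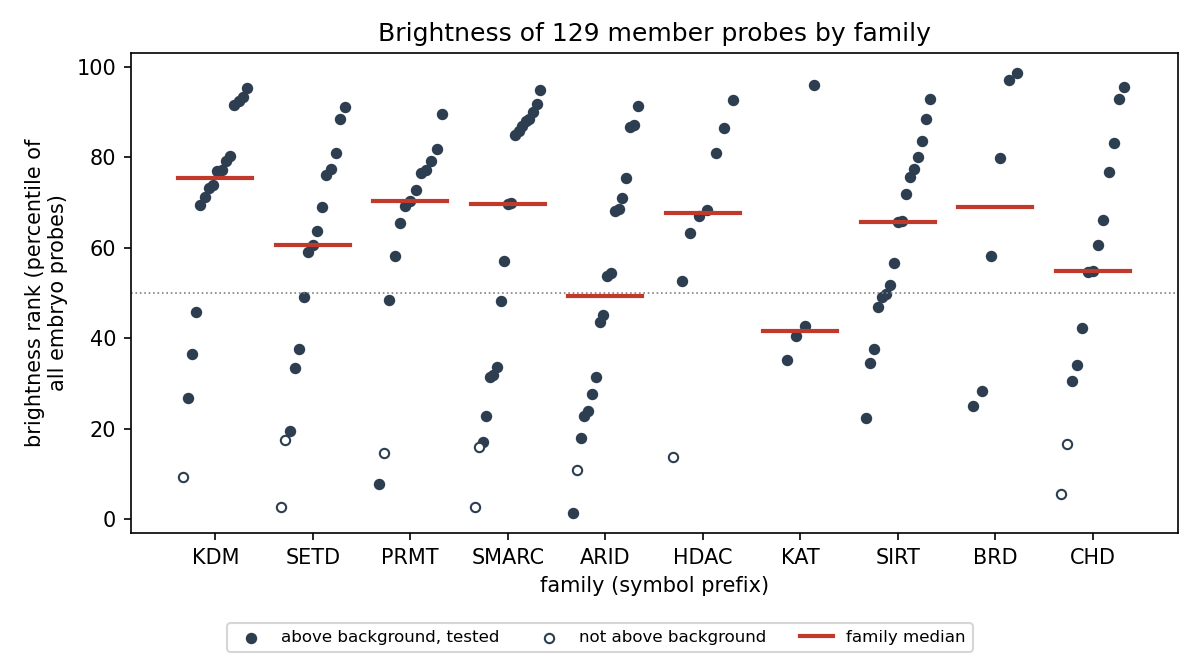
Brightness rank of each member probe (vertical axis, percentile among all embryo probes) by family (horizontal axis), for the 129 members without a set-aside spot. Filled points were above background and tested, open points were not above background, and red bars mark family medians, from 75.4 in KDM to 41.7 in KAT. Probes of every family spread over much of the scale.

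With limma, 0 of 119 member probes passed the adjusted threshold of 0.05 for sire age, as did 0 of all 36325 tested probes (0%), and the smallest adjusted p among members was 0.957. Log2 ratios are given as 10 over 16 months, so a positive value means a higher signal in embryos sired at 10 months. The median fitted ratio over members was -0.04, against -0.0018 over all tested probes, with 51 members above 0 and 68 below (42.9% above 0, against 49.4% of all tested probes). Per array the member median was -0.02, 0.03, 0.01 and -0.07 on replicates 1 to 4, so it had no constant sign. At an unadjusted p under 0.05 there were 2 members (3.96% of all tested probes), 1 higher at 10 months (2.05% of all) and 1 lower (1.92% of all). These were the SWI/SNF subunit SMARCD2 and the arginine methyltransferase PRMT7. Half-widths of the members' 95% intervals had a median of 0.30 on the log2 scale (1.23-fold), and the interval end farthest from 0 was 0.94, in ARID3C. The offset of 50 added before the logarithm shrinks the ratios of dim probes, so larger differences in RNA are possible at those.

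No family kept 1 direction on all arrays. Family medians of the fitted ratio ran from -0.11 in CHD to 0.07 in SIRT, with 4 families above 0 and 6 below, and each of the 10 families had array medians of both signs. The CHD family medians were 0.16, 0.17, -0.42 and -0.31 on replicates 1 to 4, the lowest of any family on replicates 3 and 4. KAT, with 4 probes of 2 genes, had -0.21, 0.01, 0.36 and 0.13, and PRMT had -0.05, 0.06, -0.23 and -0.10. The members' ratios were widest on replicate 3, with an SD of 0.50 over probes, against 0.29, 0.27 and 0.30 on replicates 1, 2 and 4. These array values still hold the part that differs between dye orientations, which the fitted values leave out.

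**Figure D2:**
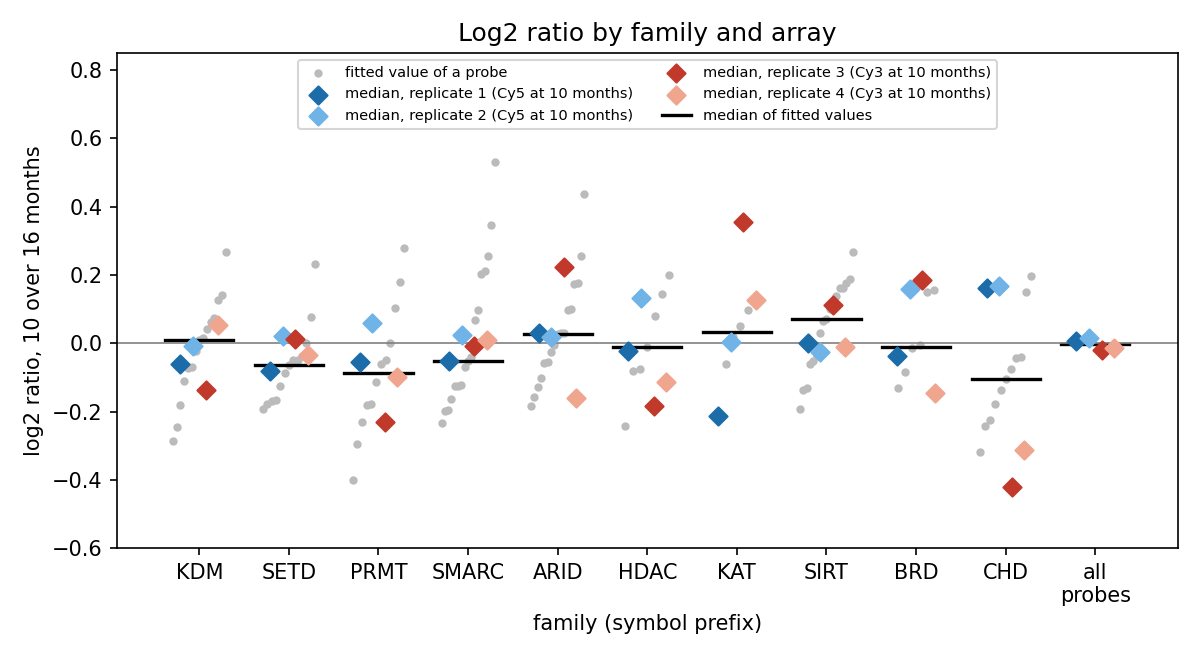
Log2 ratio of 10 over 16 months (vertical axis) by family (horizontal axis). Grey points are fitted values of single probes, black bars their median, and diamonds the median over the family's probes on each array, in blue where the 10-month sample carried Cy5 and in red where it carried Cy3. The diamonds of each family lie on both sides of 0, and those of CHD split by dye orientation.

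Among the writers, PRMT7, which places single methyl groups on arginine, was lower at 10 months on every array but did not pass the adjusted test. Its log2 levels were 10.95, 11.64, 10.43 and 10.99 in embryos sired at 16 months, against 10.57, 11.32, 10.23 and 10.71 in embryos sired at 10 months, on replicates 1 to 4. The groups overlapped across arrays, but within each array the 10-month sample was lower, by log2 ratios of -0.39, -0.31, -0.20 and -0.28. The fitted ratio was -0.30 ± 0.11 (SE, 4 arrays), with an unadjusted limma p of 0.033 and an adjusted p of 0.957.

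PRMT10, now named PRMT9, which methylates a splicing factor, had the lowest fitted ratio of all members, -0.40 ± 0.20. Its levels were 9.05, 9.33, 9.61 and 9.31 at 16 months, against 8.89, 8.95, 8.42 and 9.43 at 10 months. Replicate 3 carried most of the difference, with a ratio of -1.19, against -0.16, -0.38 and 0.12 on replicates 1, 2 and 4. Its other 2 probes were fitted at -0.11 ± 0.14 and -0.18 ± 0.18. PRMT5, the main enzyme of symmetric arginine dimethylation, was at -0.06 ± 0.12 by its brightest probe and at 0.28 ± 0.13 by the other, which was positive on all 4 arrays. PRMT6 was at 0.18 ± 0.17. Of the 12 tested PRMT probes, 3 were above 0 and 9 below.

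The lysine methyltransferases of the SETD family had 3 of 13 tested probes above 0 and 10 below, with a median of -0.06. SETD1A, the catalytic subunit of a complex that methylates histone H3 at promoters, had levels of 11.41, 11.57, 11.19 and 11.12 at 16 months, against 11.19, 11.51, 10.55 and 11.27 at 10 months. The groups overlapped and replicate 4 ran against the other arrays, and the fitted ratio was -0.19 ± 0.15. SETD2, which marks the bodies of transcribed genes, was at -0.05 ± 0.12 by its brightest probe and at -0.12 ± 0.12 and -0.18 ± 0.12 by the others. SETDB1, which silences retroelements, was at -0.04 ± 0.15 and ranged from -0.39 on replicate 3 to 0.43 on replicate 1. SETD7, a monomethyltransferase, was at 0.08 ± 0.14, and its probe exceeded background on 2 of the 4 arrays at either age. The acetyltransferases KAT2B (PCAF) and KAT5 were at 0.10 ± 0.12 and 0.02 ± 0.20. On KAT5 the arrays disagreed, with ratios of -0.16, 0.23, 0.61 and -0.61.

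The erasers gave values on both sides of 0. KDM1A (LSD1), a flavin-dependent histone H3 demethylase, had levels of 11.17, 11.77, 11.66 and 11.32 at 16 months, against 11.22, 11.31, 11.39 and 10.86 at 10 months. Its fitted ratio was -0.28 ± 0.13, with 3 of 4 arrays negative. A dimmer KDM1A probe was at 0.14 ± 0.11 and positive on all 4 arrays, so the gene's probes gave opposite directions.

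KDM3A, which removes repressive histone H3 methylation, had levels of 11.75, 11.63, 11.43 and 11.71 at 16 months, against 11.53, 11.88, 12.18 and 12.00 at 10 months. Its fitted ratio of 0.27 ± 0.14 was the highest in the KDM family, with 3 of 4 arrays positive. The CpG-island binder KDM2A was at -0.18 ± 0.16. KDM5B and KDM5C, which erase a mark of active promoters, were at 0.02 ± 0.12 and 0.13 ± 0.12, and KDM6A, which erases the Polycomb mark, was at 0.0087 ± 0.13. Of the 15 tested KDM probes, 8 were above 0 and 7 below.

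The class I deacetylases HDAC1 and HDAC2, paired subunits of corepressor complexes, stood on opposite sides of 0. HDAC1 had levels of 11.71, 11.70, 11.53 and 11.89 at 16 months, against 11.31, 11.77, 11.25 and 11.53 at 10 months, and was fitted at -0.24 ± 0.13. HDAC2 had levels of 7.76, 7.54, 8.09 and 8.04 at 16 months, against 7.74, 7.82, 8.62 and 8.06 at 10 months, and was fitted at 0.20 ± 0.14. HDAC1 was lower at 10 months on 3 of 4 arrays, HDAC2 was higher on 3 of 4, and the intervals of both included 0. Of 7 tested HDAC probes, 3 were above 0.

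The NAD-dependent sirtuins had the highest family median, 0.07, with 11 of 17 probes above 0. Among their brightest probes, however, 4 of 7 genes were above 0. SIRT1, the nuclear deacetylase, was at -0.19 ± 0.12 by its brightest probe, with ratios of -0.33, -0.31, -0.19 and 0.07, and at 0.16 ± 0.11 and -0.06 ± 0.16 by the others. SIRT3, the main deacetylase of mitochondria, was at 0.16 ± 0.17, with ratios of 0.27, -0.25, 0.77 and -0.13. By their brightest probes, all 3 mitochondrial sirtuins, SIRT3, SIRT4 and SIRT5, were fitted above 0 (median 0.12). The other SIRT5 probes were at -0.04 ± 0.13 and 0.18 ± 0.12. Over the brightest probes of the 3 genes the median was 0.27, -0.24, 0.72 and -0.15 on replicates 1 to 4, so on replicates 2 and 4 it was below 0.

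Among the bromodomain readers, BRD3, which binds acetylated histones and was above background on 2 arrays at either age, was at 0.16 ± 0.12. BRD8 was at 0.15 ± 0.13, with levels of 13.94, 13.73, 14.06 and 14.07 at 16 months, against 14.10, 14.08, 14.31 and 13.91 at 10 months. BRD9, which marks the non-canonical SWI/SNF complex, had ratios of -0.31, -0.30 and -0.29 on replicates 1 to 3 and 0.37 on replicate 4. The single array of opposite sign left its fitted ratio at -0.13 ± 0.14. Of the 6 BRD probes, 2 were above 0 and 4 below.

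The remodellers held the largest fitted ratio among the members. SMARCD2, an accessory SWI/SNF subunit, had levels of 11.54, 10.15, 11.26 and 11.36 at 16 months, against 11.75, 10.46, 12.58 and 11.64 at 10 months. It was higher at 10 months on all 4 arrays, by 0.22, 0.30, 1.32 and 0.28, while the levels of the groups overlapped across arrays. The fitted ratio was 0.53 ± 0.17, a 1.44-fold difference, with an unadjusted limma p of 0.017 and an adjusted p of 0.957. Replicate 3 weighed heavily in it, and without that array the fitted ratio was 0.27.

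The ATPases of the complex, SMARCA2 (BRM) and SMARCA4 (BRG1), were fitted at 0.35 ± 0.19 and 0.21 ± 0.15. SMARCA2 had levels of 10.94, 10.98, 10.23 and 11.04 at 16 months, against 11.27, 11.15, 11.24 and 10.91 at 10 months, and replicate 3 had the largest ratio, 1.01. SMARCA4 had ratios of 0.04, 0.80, -0.06 and 0.06, so that replicate 2 stood apart from the others. The other 2 SMARCA2 probes were at -0.20 ± 0.16 and 0.10 ± 0.12. Of the 7 core subunits, 4 were above 0 and 3 below, with SMARCB1 at -0.13 ± 0.13 and SMARCC2 at -0.19 ± 0.13. SMARCA5, the ATPase of ISWI remodellers, was at -0.07 ± 0.12, with levels of 12.05, 12.33, 12.42 and 12.41 at 16 months, against 12.11, 12.07, 12.47 and 12.29 at 10 months.

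The subunits that set one SWI/SNF complex apart from another did not share a direction. By their brightest probes, ARID1A, which defines the BAF complex, was at 0.18 ± 0.13, and ARID2, which defines PBAF, at -0.16 ± 0.12. The other ARID1A probe was at -0.06 ± 0.12, and the other ARID2 probes were at -0.13 ± 0.14 and -0.0050 ± 0.12. Over ARID1A, ARID1B, ARID2, BRD7 and BRD9, 2 genes were above 0 and 3 below. The transcription factor ARID3C had the highest ratio of its family, 0.44 ± 0.22. Its levels were 9.48, 7.85, 7.81 and 8.51 at 16 months, against 9.32, 7.93, 9.44 and 8.69 at 10 months. The ratio on replicate 3 was 1.64, against -0.15, 0.08 and 0.18 on replicates 1, 2 and 4, so nearly all of the difference stood on 1 array. ARID5A, an RNA-binding family member, was the lowest of the family at -0.18 ± 0.12.

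**Figure D3:**
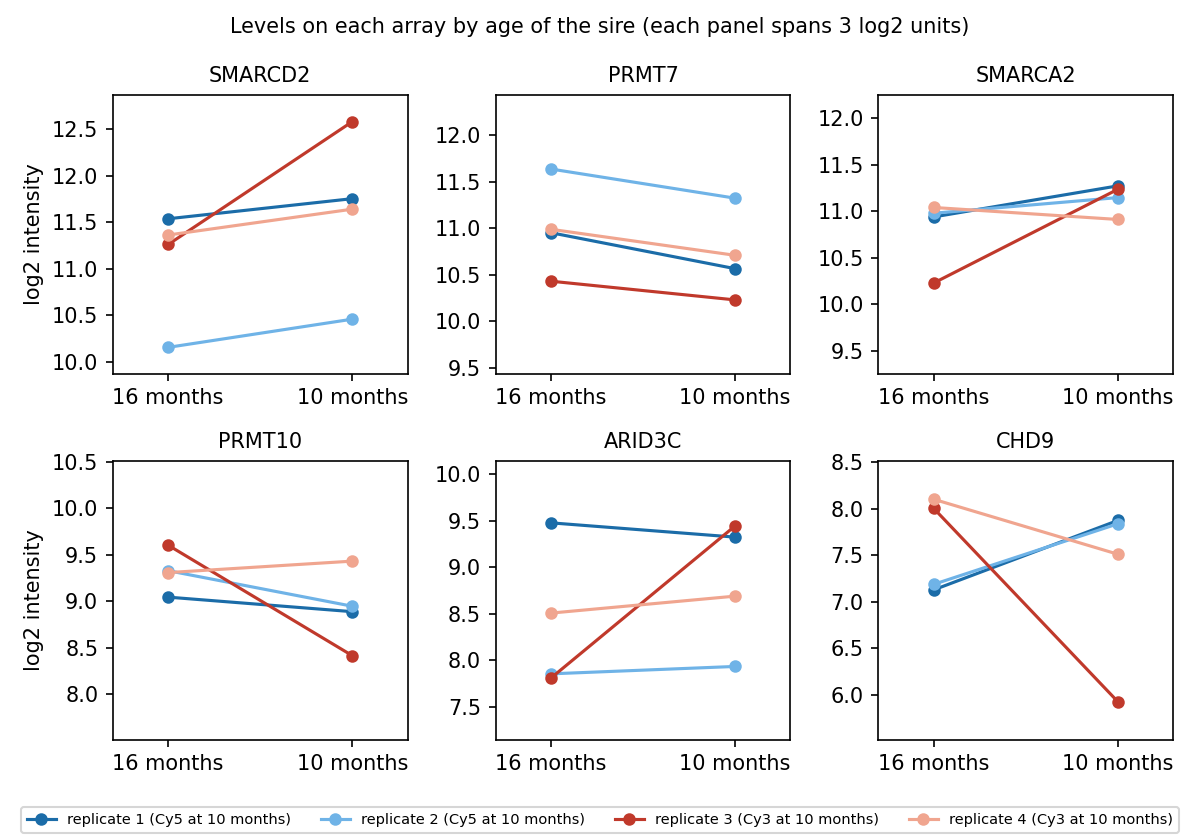
Log2 intensity of 6 genes with large fitted ratios at 16 and at 10 months (horizontal axis), with 1 line per array and panels of equal height. All 4 lines slope down from left to right for PRMT7 and up for SMARCD2, the lines of SMARCA2, PRMT10 and ARID3C lean on replicate 3, and those of CHD9 cross by dye orientation.

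In the CHD family the ratio split by dye orientation at 6 of 11 tested probes. Orientation coincides with replicates 1 and 2 against 3 and 4. A dye effect therefore cannot be told apart from a difference between the samples on those arrays, and the fitted dye effect holds both. Of 11 tested CHD probes, 9 and 9 were higher at 10 months on replicates 1 and 2, where the 10-month sample carried Cy5, but 2 and 1 on replicates 3 and 4, where it carried Cy3. The median fitted dye effect was 0.26 (log2 Cy5 over Cy3) for CHD probes, against -0.01 over all members and 0.01 over all tested probes. CHD9 had levels of 7.13, 7.19, 8.01 and 8.10 at 16 months, against 7.88, 7.84, 5.93 and 7.51 at 10 months, where its probe was above background on 3 of the 4 arrays. Its dye effect of 1.02 exceeded its age ratio of -0.32 ± 0.22, and the array ratios were 0.75, 0.65, -2.08 and -0.59.

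CHD4, the ATPase of the NuRD corepressor complex, split in the same way, with levels of 11.26, 11.71, 11.39 and 12.27 at 16 months, against 11.82, 12.06, 11.11 and 11.47 at 10 months. It was fitted at -0.04 ± 0.13, with a dye effect of 0.50. CHD1, a remodeller of transcribed genes, was at -0.18 ± 0.12 by its brightest probe, and all 3 of its probes were positive on replicates 1 and 2 and negative on replicates 3 and 4. CHD8 did not split by dye orientation, with ratios of -0.47, -0.29, -0.42 and 0.63 and a fitted ratio of -0.14 ± 0.18. CHD1L, a remodeller known from DNA repair, was the highest of the family at 0.20 ± 0.16.

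Ratios of opposite sign in the 2 dye orientations, with the same sign within each, were found at 26 of 119 members (21.8%), against 23.6% of all tested probes. The CHD family gave 6 of these from 11 probes, but 3 of the 6 were probes of CHD1. HDAC gave 3 from 7 and BRD 0 from 6. CHD had the highest share of any family and BRD the lowest. The dye effect was larger than the age ratio at 61 members (51.3%), against 60.2% of all tested probes. The clearest cases, chosen after their values were seen, were PRMT1 and HDAC5. PRMT1, which makes most asymmetric dimethylarginine, had ratios of 0.56, 0.55, -0.55 and -0.56, which cancelled to a fitted -7.07e-06 with a dye effect of 0.55. HDAC5, a class IIa deacetylase, had 0.45, 0.47, -0.54 and -0.43 and was fitted at -0.01 ± 0.11. Any single array would have given a different sign for either gene depending on its dye orientation.

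**Figure D4:**
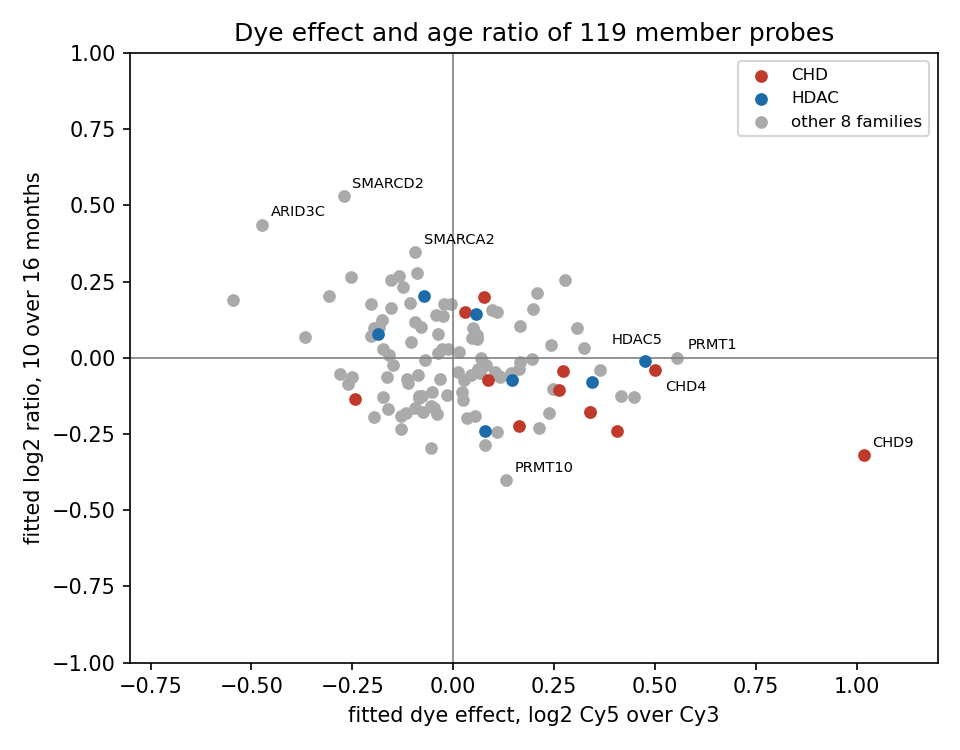
Fitted log2 ratio of 10 over 16 months (vertical axis) against the fitted dye effect, log2 Cy5 over Cy3 (horizontal axis), for the 119 tested member probes. Points far to the right with ratios near 0, such as PRMT1, HDAC5 and CHD4, have a dye effect larger than their age ratio. CHD9 has the largest dye effect, 1.02.

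Arrays of the same dye orientation resembled each other more than arrays of opposite orientation. Across the 119 members, the 10 over 16 months ratios of replicates 1 and 2 had a Pearson r of 0.30 and those of replicates 3 and 4 one of 0.21. Between orientations it was -0.18 for replicates 1 and 3, -0.40 for 1 and 4, -0.04 for 2 and 3 and -0.25 for 2 and 4. All tested probes gave 0.32, 0.12, -0.14, -0.26, -0.14 and -0.30 in the same order. These are descriptions across probes, which share arrays and are not independent replicates.

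The sign was the same on all 4 arrays at 13 members (9.37% of all tested probes), 8 of them higher at 10 months (4.61% of all) and 5 lower (4.76% of all). Those higher were SMARCD2, ARID5B, a dimmer probe each of KDM1A, SETD4, PRMT5 and SIRT5, and 2 dimmer probes of SIRT6. Those lower were PRMT7, the CpG-island demethylase KDM2B and a dimmer probe each of PRMT1, SETD2 and SIRT7. The probe of SIRT6, a nuclear sirtuin, with the larger ratio was at 0.27 ± 0.12, but its brightest probe was at -0.05 ± 0.13. KDM2B was at -0.24 ± 0.13, with a probe that exceeded background on 3 arrays at 16 months but 1 at 10 months. ARID5B, SETD4, SIRT5, SIRT6, SIRT7, KDM2B and PRMT1 fall outside the naming rule and were named after their values were seen.

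Probes of 1 gene did not always share a direction. Of the 27 genes with several tested probes, the probes of 14 had the same direction and those of 13 did not, and the median range between a gene's highest and lowest fitted ratio was 0.20. The 14 include PRMT1, whose brightest probe was fitted at -7.07e-06, in effect 0. The same count over all genes on the array was not made, so this one cannot be read as particular to the members. SMARCA2 had the widest range, from -0.20 to 0.35. All 3 probes of PRMT10, CHD1, ARID2 and SETD2 were below 0, and all 3 of SIRT3 and ARID3A were above 0.

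**Figure D5:**
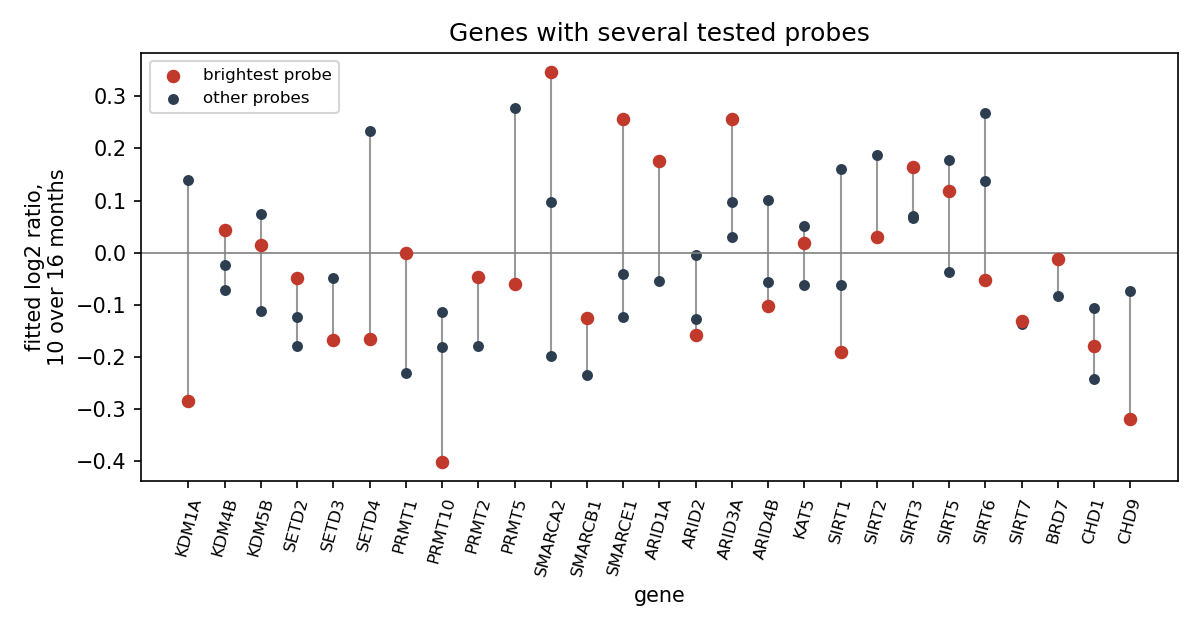
Fitted log2 ratio of 10 over 16 months (vertical axis) of each tested probe of the 27 genes with several (horizontal axis). Red points are the brightest probe of a gene, dark points the others, and grey lines their range, which is widest in SMARCA2 (-0.20 to 0.35). Lines that cross 0 belong to the 13 genes whose probes differ in direction.

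Chromatin genes outside the name rule also lay on both sides of 0. Under older symbols the rule left out JMJD2A (now KDM4A), JMJD5 (KDM8), MYST1 (KAT8) and MYST2 (KAT7), with 5 tested probes at 0.03, 0.02, -0.03, -0.23 and -0.07. Of a list of 102 other chromatin genes, which includes MYST1 and MYST2, 74 were on the array and 69 were tested, of which 33 were above 0, 36 below and 0 past the adjusted threshold, with a median of -0.02. Methyltransferases and their partner subunits had 11 above 0 and 11 below, acetyltransferases 5 and 3, corepressor partners 7 and 4, and remodeller subunits 4 and 13. The first group held Polycomb genes, but of the listed MLL genes only MLL5 was on the array under these symbols. By their brightest probes, 2 of the 69 were higher at 10 months at an unadjusted limma p under 0.05 (2.05% of all tested probes) and 0 lower (1.92% of all). These were the remodeller ATRX at 0.44 ± 0.14, whose other 4 probes were all below 0 (-0.18 to -0.0086), and the corepressor subunit SAP18 at 0.44 ± 0.15, whose other probes were at 0.09 and 0.34. Among dimmer probes, 1 of the SWI/SNF subunit SS18 was higher at 10 months at that threshold (0.49). Its other probes were at -0.06 and 0.05. Those lower were 1 of BAZ1B (-0.29), whose other probes were at -0.18 and -0.13, and 1 of the Polycomb subunit SUZ12 (-0.30). The other tested SUZ12 probes were at 0.29 and -0.17, so this gene's probes gave opposite directions. Of all tested probes, 2.05% were higher and 1.92% lower at that threshold.

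Markers of other cells were measured beside these values. Of the oocyte list, 6 of 7 genes were tested and all 6 were below 0 (median -0.15). BTG4, at -0.82 ± 0.16, was the 1 gene at an unadjusted limma p under 0.05 (lower at 1.92% of all tested probes). The BTG4 ratios were -1.23, -1.92, 0.22 and -0.34 on replicates 1 to 4, so replicate 3 went the other way and replicates 1 and 2 held most of the difference. GDF9 was not above background. The summed linear level of the tested genes ran from 779 to 1184 at 16 months, against 665 to 883 at 10 months. Within each array the sum was lower at 10 months, at 0.769, 0.745, 0.920 and 0.853 times that at 16 months on replicates 1 to 4. The cumulus and granulosa list had 6 of 8 genes tested (716.7 to 826 at 16 months, 742 to 877 at 10 months), with FOXL2 and AMH not above background. The sperm and testis list had 5 of 6, without AKAP4 (634 to 834 at 16 months, 687 to 998 at 10 months), and leukocyte and erythroid genes 6 of 6 (5403 to 7949 at 16 months, 7214 to 11794 at 10 months). Within arrays, the sum of the last list at 10 months was 1.31, 1.42, 1.92 and 0.91 times that at 16 months on replicates 1 to 4. The cumulus and the sperm lists had such ratios on both sides of 1. In the leukocyte and erythroid list PTPRC at 0.49 and CD74 at -0.29 had an unadjusted limma p under 0.05. Of all tested probes, 2.05% were higher and 1.92% lower at that threshold. The PTPRC probe was among the brightest (rank 95.9), while a second PTPRC probe was above background on 0 arrays. The part of such transcripts in the members' values was not tested, and in bulk RNA fewer cells of a type and less RNA per cell cannot be told apart.

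Leaving out an array changed the calls. Without replicate 4, 5 members passed the adjusted threshold (limma, 5.11% of all tested probes), in a fit where replicate 3 is the only array of its dye orientation. They were SMARCD2 at 0.79 (adjusted p = 0.0128), ARID3C at 0.80 (adjusted p = 0.0128), PRMT10 at -0.73 (adjusted p = 0.0154), CHD9 at -0.69 (adjusted p = 0.0169) and SMARCA2 at 0.63 (adjusted p = 0.0232). Over all alternatives tried, the adjusted p of each of them ran from that value up to 1.00. These are the genes with ratios of 1.32, 1.64, -1.19, -2.08 and 1.01 on replicate 3. Without replicate 3 instead, 0 members passed (0.0165% of all tested probes), and the same genes were at 0.27, 0.07, -0.07, 0.05 and 0.06.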

How the data were processed

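The deposited scans hold, per the file headers, linear spot and local background intensity for Cy5 and Cy3. The authors' deposited table holds log2 ratios, for which the submitters' processing notes name limma. The limma version and scanner are not given in the sources used. That table was used as an alternative. It correlated with the ratios computed here at 0.978 to 0.991, which set its direction as Cy5 over Cy3, while its centring stayed unknown. Symbols came from the platform annotation, all 84 matched a RefSeq table for ARS-UCD2.0, and 2 have newer names.

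Here, limma 3.58.1 under R 4.3.3 took spot medians through normexp (offset 50) and loess within each array, control spots having weight 0. Above background meant over the median of the negative control probe plus 2 median absolute deviations. Of 43794 embryo probes, 175 were set aside on some array and 7294 were dim. The 36325 others were fitted with lmFit and eBayes, with coefficients for dye and age, with Benjamini-Hochberg adjustment over the whole set. Errors given with ± are standard errors of this fit, which leave out differences between the dye orientations. Levels per age are log2 intensities after Aquantile scaling between arrays. The arrays shared 1 slide, which leaves no slide batch to test, and their number limits the precision. The labels call them biological replicates without saying what differed between them.

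A gene stands for its brightest tested probe. Named were the highest, lowest and brightest gene of each family, members at an unadjusted p under 0.05, and enzymes known from early embryos. Of the latter, those not among the members are not reported here. Members and lists were chosen with earlier results of these data known. The script was tested on simulated data. Alternatives covered background, normalization, spot summary, filters, dye term, variance, the deposited table, probe choice, the sign of replicate 3 and each array left out.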

Additional observations from a re-analysis of the deposited data

Results flagged for a closer look

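In 5 of 38 named genes and 1 family, 1 array stood apart from the other 3 by Dixon's criterion for 4 values. SMARCD2 had a log2 ratio of 1.32 on replicate 3, and SETD2 one of -0.23 there, against 0.01, 0.02 and 0.0037 on replicates 1, 2 and 4. SMARCA4 had 0.80 on replicate 2. BRD9 had 0.37 and CHD8 0.63 on replicate 4, where the other arrays were negative. The SMARC family had a median brightness rank of 64.9 on replicate 1, against 69.0, 69.1 and 68.9 on replicates 2 to 4. Chance flags about 1 in 20 such groups. Over all members it was 9 of 119 probes (7.56%), with 4 of them on replicate 3 and 3 on replicate 4, against 5.41% of all tested probes.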

How the results depend on the processing

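No alternative with all 4 arrays put a member or any other probe past the adjusted threshold, and 11 of 38 named genes kept their direction in every alternative run. These 11 were BRD3, CHD1, HDAC1, KAT2B, KDM1A, KDM3A, KDM5C, PRMT7, SIRT1, SMARCA4 and SMARCD2, although SMARCD2 was at 0.0054 with the sign of replicate 3 turned. With median centring, the reversed log2 ratios were KDM5B -0.058 and KDM6A -0.061. With spot means, the reversed log2 ratios were CHD4 0.059, ARID5A 0.049 and SMARCC2 0.025. With the authors' deposited table, the reversed log2 ratios were KAT5 -0.057 and KDM5B -0.010. With the mean over a gene's probes, the reversed log2 ratios were KDM5B -0.0076 and PRMT5 0.11. With the sign of replicate 3 turned, which leaves replicate 4 alone in its orientation, the reversed log2 ratios were BRD8 -0.035, BRD9 0.13, KAT5 -0.40, CHD8 0.26, KDM2A 0.11, ARID2 0.0022, SETD1A 0.13, SMARCA2 -0.15, ARID1A -0.016, CHD1L -0.10, PRMT5 0.017, SETDB1 0.10, PRMT10 0.17, SETD2 0.047, ARID3C -0.19, KDM6A -0.091, PRMT6 -0.0017, HDAC2 -0.036, SIRT3 -0.19, CHD9 0.28 and SETD7 -0.14.

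Leaving out each array in turn gave ranges of the log2 ratio that crossed 0 or the threshold for 20 genes: KDM5B -0.041 to 0.071, PRMT5 -0.12 to 0.0026, PRMT6 -0.039 to 0.40, KAT5 -0.29 to 0.32, SMARCA5 -0.15 to 0.013, CHD4 -0.17 to 0.088, SETDB1 -0.19 to 0.11, KDM6A -0.065 to 0.083, SMARCB1 -0.26 to 0.0052, BRD9 -0.30 to 0.035, CHD8 -0.40 to 0.13, SETD1A -0.39 to 0.0047, SETD2 -0.11 to 0.011, SIRT3 -0.062 to 0.39, CHD9 -0.69 to 0.054, SETD7 -0.067 to 0.22, SMARCD2 0.27 to 0.79, SMARCA2 0.061 to 0.63, PRMT10 -0.73 to -0.073 and ARID3C 0.073 to 0.80. The count of all probes past the adjusted threshold ran from 0 to 1858 and was 6 without replicate 3. The count of members past it ran from 0 to 5. Members at an unadjusted p under 0.05 ran from 0 to 16 higher at 10 months and from 0 to 11 lower, with 0 and 4 without replicate 3 and 16 and 11 without replicate 4. The member median ran from -0.040 to 0.013, that of SMARC from -0.061 to 0.0052 and that of SIRT from -0.028 to 0.15. The median brightness rank ran from 46.1 to 50.6 in ARID and from 54.4 to 59.1 in CHD.

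Members at an unadjusted p under 0.05 and higher at 10 months numbered 2 with no background correction, with no filter on dim probes and with a trended robust variance, and 0 with the sign of replicate 3 turned. Those lower numbered 2 with median centring, the authors' deposited table and the sign of replicate 3 turned, and 3 with spot means. The median over members was 0.0078 with spot means. The SMARC median was 0.026 with median centring, -0.013 with spot means, -0.010 with the mean over a gene's probes and -0.0040 with the sign of replicate 3 turned. The SETD median was -0.12 with median centring. The SIRT median was -0.0035 with the stricter filter and -0.039 with the sign of replicate 3 turned. With spot means the brightness rank was 72.2 in PRMT and 46.5 in ARID. The cause of these shifts was not tested. Every fit used the ratio within an array, which pairs the ages, so no further replicate block was added, and the array numbers are not tied to bulls. Replicates 1 and 2 shared the dye orientation opposite to replicates 3 and 4, so leaving out 1 array leaves 1 array alone in its orientation. Signal near the negative control limits what the dim probes can show.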
